A study of Mus musculus with 2 samples.

Results

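The Adamts, Adamtsl, Mmp and Timp genes code for secreted and membrane-anchored proteins that cut the extracellular matrix, for their relatives without a protease domain, and for their inhibitors. They were taken by gene symbol from the Ago2 immunoprecipitation (IP) count tables, which gave 51 of the 22609 genes listed, with 19 Adamts, 5 Adamtsl, 23 Mmp and 4 Timp genes. The RNA came from TM4, an established mouse Sertoli cell line grown in DMEM, 48 h after transfection with either miR-471-5p mimic or scramble. It was pulled down with an antibody to Ago2, the protein that holds a miRNA against its target mRNAs, and then sequenced. Each condition had 1 library, so no difference has a replicate check. No untransfected cells and no RNA taken before the pull-down were analysed here, so differences in mRNA abundance and in Ago2 binding cannot be told apart.

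Matrix metalloproteinases (Mmp) are zinc enzymes made as inactive proenzymes. They are grouped by substrate into collagenases, gelatinases and stromelysins, and by anchorage into secreted and membrane-type enzymes. The Adamts proteases carry thrombospondin repeats, and among them are the enzymes that cleave the proteoglycans aggrecan and versican and those that trim procollagen. Tissue inhibitors of metalloproteinases (Timp) bind the active site of these enzymes. In the testis, Sertoli cells rest on a basement membrane, and proteases and their inhibitors take part in remodelling the junctions that germ cells cross.

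Reads on genes numbered 18628310 with mimic and 18717225 with scramble. Genes with at least 20 reads over both libraries were compared, which left 12186 genes. Each gene has a log2 ratio of its mimic to its scramble reads after TMM scaling, a correction for library composition. The 95% interval of a ratio was taken from the share of reads found with mimic (exact Clopper-Pearson) and covers counting error only. Of the 12 Sertoli markers looked for 6 reached 20 reads. Sox9 had 1228 reads with mimic and 1070 with scramble, and Gata4 had 341 and 365. Wt1 was higher with 73 and 35 reads (log2 ratio 1.06, interval 0.46 to 1.68) and Inhba lower with 40 and 94 (log2 ratio -1.23, interval -1.81 to -0.68). Inha with 122 and 80 reads and Clu with 217 and 163 had intervals above 0. Fshr had 0 reads in both libraries, and Amh had 5 in each, so reads on these 2 Sertoli markers were absent or nearly so. The smooth muscle actin gene Acta2, counted here as a peritubular myoid marker, was abundant with 73076 and 101778 reads, while the other myoid markers Myh11, Cnn1 and Des had between 6 and 17 reads in either library. Markers of Leydig cells summed to 84 and 88 reads, those of germ cells to 127 and 142, those of macrophages to 26 and 34, and those of endothelium to 6 and 9. Their part in the results on matrix genes was not tested.

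The inflammation-associated Mmp3, Mmp9 and Mmp13 and the inhibitor Timp1 had more reads in the mimic library, while the proteases Adamts1, Adamts6 and Adamts12 had fewer. Of the 51 genes 30 reached 20 reads. In the mimic library 6 of the 30 were higher by a log2 ratio of at least 1, namely Mmp3, Mmp9, Mmp13, Adamts7, Timp1 and Adamts3, against 3.96% of all genes compared. Another 3 of the 30 were lower by as much, against 3.08% of all genes. The counting interval lay above 0 in 11 of the 30 and below 0 in 11, against 31.5% and 32.5% of all genes. The median log2 ratio of the 30 genes was -0.02, close to the median of 0.00 over all genes, so the 30 genes as a whole were not displaced to one side. In bulk RNA of this kind, fewer cells with a transcript and less of it per cell cannot be told apart.

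**Figure D1:**
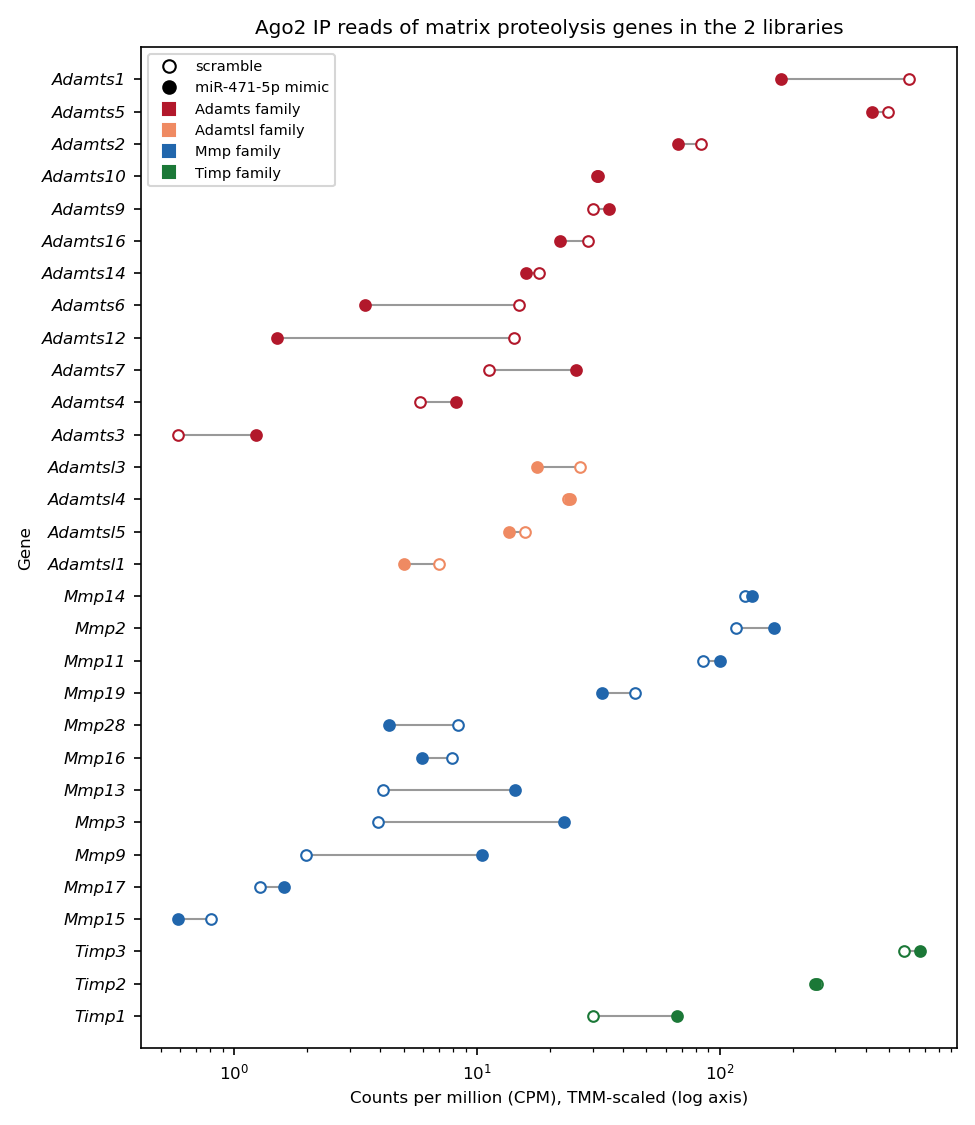
CPM (reads scaled to library size with TMM, log axis) of the 30 genes with at least 20 reads, with open circles for the scramble library and filled circles for the mimic library, coloured by family. Most pairs of circles lie close together, and wide gaps are seen in Adamts1, Adamts6 and Adamts12 (lower with mimic) and in Mmp3, Mmp9 and Mmp13 (higher with mimic).

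Mmp3 showed the highest ratio of the family. Mmp3 is stromelysin-1, which degrades proteoglycans and activates other Mmp proenzymes, and it had 426 reads with mimic and 73 with scramble, a 5.83-fold difference (log2 ratio 2.54, 95% interval 2.18 to 2.92). Mmp9, a gelatinase that cuts basement membrane collagen, had 197 reads and 37, which is 5.32-fold higher in the mimic library (log2 ratio 2.41, interval 1.90 to 2.96). Mmp13, the main collagenase of rodents, had 269 and 77 reads, a 3.49-fold difference (log2 ratio 1.804, interval 1.43 to 2.19). In the scramble library these 3 genes were minor members, each with at most 1.02% of all Mmp reads, and in the mimic library they held 4.57%, 2.11% and 2.88%. The Mmp3 ratio lay at percentile 99.7 of all genes compared, that of Mmp9 at 99.6 and that of Mmp13 at 98.9.

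Mmp3 and Mmp13 belong to a run of 10 neighbouring Mmp genes on chromosome 9, in the order Mmp13, Mmp12, Mmp1b, Mmp3, Mmp1a, Mmp10, Mmp8, Mmp27, Mmp20 and Mmp7. The other 8 genes of the run stayed under 20 reads. Among them Mmp10, or stromelysin-2, had 11 reads with mimic and 2 with scramble. Mmp1b, a collagenase-like gene, had 9 and 2 reads. The neutrophil collagenase Mmp8 had 4 and 0 reads, and Mmp27 had 1 in each library. No read was counted on Mmp12, Mmp1a, Mmp20 or Mmp7. Summed over these 8 low genes, there were 25 reads with mimic and 5 with scramble (log2 ratio 2.32, interval 0.91 to 4.06). Thus no gene of the run had more reads in the scramble library. The 13 Mmp genes elsewhere in the genome summed to 8606 and 7373 reads (log2 ratio 0.22, interval 0.18 to 0.27).

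The promoters of this run are shown because AP-1 sites are a textbook feature of inducible Mmp genes. The motif searched was TGANTCA, with N for any base, which reads the same on both strands. It takes in TGAGTCA and TGACTCA, the AP-1 sites bound by dimers of Fos and Jun proteins. RefSeq promoter windows (GRCm38.p6, 250 bases before to 50 after the start site) were found for 36 of the 51 genes. A match was present in a window of 8 of the 36 genes, or 22.2%, and all 8 were in the chromosome 9 run, where Mmp8 and Mmp27 had none. Of the genes compared, Mmp2, Mmp9, Mmp16, Mmp17, Mmp19, Adamts4, Adamts5, Adamts6, Adamts7, Adamts10, Adamts16 and Adamtsl1 had no window in the table and were not searched. Over all genes with a window, 8.97% had a match, and over all windows 7.81%. The windows of the 4 genes of the run that had a match and reads in both libraries are printed 5′ to 3′ with the motif in capitals.
Mmp3, chr9:7445572-7445871, plus strand: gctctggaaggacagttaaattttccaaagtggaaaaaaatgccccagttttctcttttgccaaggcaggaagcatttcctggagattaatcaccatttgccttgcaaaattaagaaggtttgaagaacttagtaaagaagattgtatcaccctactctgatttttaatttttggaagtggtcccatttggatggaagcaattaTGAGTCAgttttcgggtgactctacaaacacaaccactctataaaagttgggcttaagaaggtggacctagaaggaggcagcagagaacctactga
Mmp13, chr9:7272264-7272563, plus strand: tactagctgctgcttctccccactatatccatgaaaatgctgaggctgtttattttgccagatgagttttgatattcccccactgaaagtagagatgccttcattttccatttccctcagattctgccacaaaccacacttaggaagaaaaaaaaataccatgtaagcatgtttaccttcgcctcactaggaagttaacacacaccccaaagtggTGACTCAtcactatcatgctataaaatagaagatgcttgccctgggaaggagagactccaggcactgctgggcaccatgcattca
Mmp10, chr9:7502092-7502391, plus strand: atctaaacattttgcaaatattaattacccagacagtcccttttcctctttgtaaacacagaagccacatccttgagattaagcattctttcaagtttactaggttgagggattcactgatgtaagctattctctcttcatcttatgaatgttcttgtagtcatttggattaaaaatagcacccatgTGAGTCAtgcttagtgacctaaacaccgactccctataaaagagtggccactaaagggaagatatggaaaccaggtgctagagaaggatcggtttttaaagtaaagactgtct
Mmp1b, chr9:7387977-7388276, minus strand: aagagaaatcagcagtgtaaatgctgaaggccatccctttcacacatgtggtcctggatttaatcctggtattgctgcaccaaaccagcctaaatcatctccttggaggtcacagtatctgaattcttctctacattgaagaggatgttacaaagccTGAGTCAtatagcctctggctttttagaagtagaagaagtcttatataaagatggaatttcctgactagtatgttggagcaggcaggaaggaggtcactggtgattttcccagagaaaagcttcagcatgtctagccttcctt
The motif begins 46 bases before the annotated start in Mmp3, 35 in Mmp13, 63 in Mmp10 and 93 in Mmp1b. The match is a description of the sequence, and Mmp12, Mmp1a, Mmp20 and Mmp7 also carried one without a read in either library. In Mmp20 the match was TGAATCA. Of the genes with a window and no match, 16 reached 20 reads, and 2 of these were higher and 2 lower by a log2 ratio of 1, against 3.96% and 3.08% of all genes.

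The abundant Mmp genes changed little. Mmp2, the gelatinase of most connective tissue cells, had 3125 reads with mimic and 2181 with scramble, a 1.43-fold difference (log2 ratio 0.52, interval 0.44 to 0.60). Mmp14, the membrane-type enzyme that activates the Mmp2 proenzyme, had 2551 and 2370 reads (log2 ratio 0.11, interval 0.02 to 0.19). Mmp11, or stromelysin-3, which is activated inside the cell by furin, had 1882 and 1596 reads (log2 ratio 0.24, interval 0.14 to 0.33). The interval of Mmp2 lay above those of Mmp14 and Mmp11 and below those of Mmp3, Mmp9 and Mmp13, so the 2 gelatinases differed from each other in their ratios by more than counting error. Mmp2, Mmp14 and Mmp11 together held between 81.0% and 81.7% of the reads of the family in both libraries.

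Other members of the Mmp family were lower in the mimic library or too sparse to place. Mmp28, or epilysin, had 81 reads and 157, which gave the lowest ratio of the family (log2 ratio -0.96, interval -1.36 to -0.56). Mmp19 had 611 and 841 reads (log2 ratio -0.46, interval -0.61 to -0.31). Among the membrane-anchored enzymes Mmp16 had 111 and 148 reads (log2 ratio -0.42, interval -0.78 to -0.05). Mmp17, which is held in the membrane by a GPI anchor, had 30 and 24 reads, and Mmp15 had 11 and 15. The intervals of Mmp17 and Mmp15 included 0, and at this depth no difference could be detected in either. Mmp23 with 5 and 4 reads and Mmp24 with 2 and 0 were under the minimum, and Mmp21 and Mmp25 had no read.

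**Figure D2:**
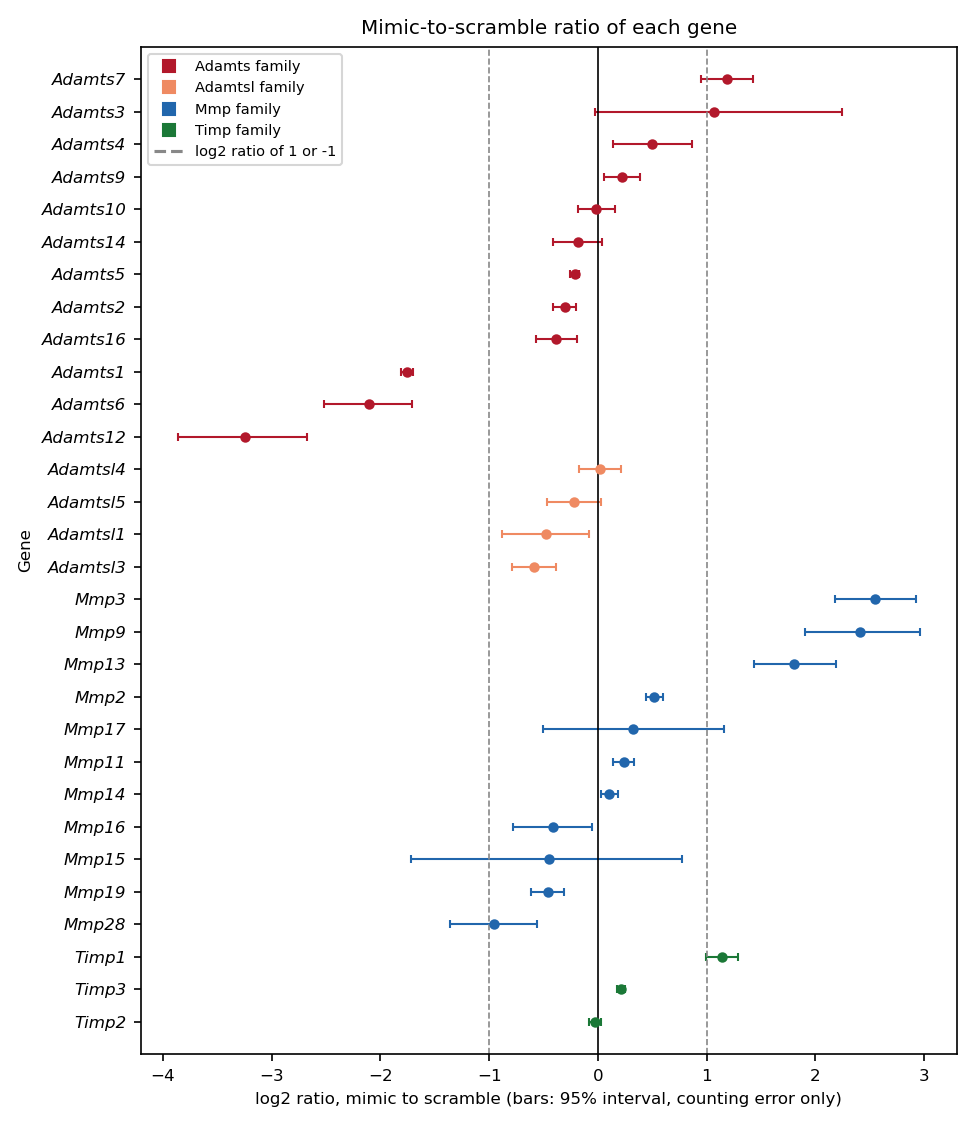
Log2 ratio of mimic to scramble of the 30 genes, with the exact 95% interval for counting error as bars, coloured by family, and dashed lines at 1 and -1. Mmp3, Mmp9 and Mmp13 stand at the right and Adamts1, Adamts6 and Adamts12 at the left. Between the dashed lines lie 21 of the 30 genes, the Adamtsl genes among them.

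Of the Adamts proteases that cleave proteoglycans, Adamts1 was lower in the mimic library by more than a log2 ratio of 1 and its relatives were not. Adamts1, which cleaves versican and aggrecan, had 3342 reads with mimic and 11254 with scramble, a 3.37-fold difference (log2 ratio -1.75, interval -1.81 to -1.70). Adamts5, an aggrecanase and the neighbour of Adamts1 on chromosome 16, had 7942 and 9201 reads (log2 ratio -0.21, interval -0.26 to -0.17). The intervals of these neighbours were far apart. Adamts4, the other major aggrecanase, had 154 and 109 reads, and was higher in the mimic library (log2 ratio 0.50, interval 0.13 to 0.87). Adamts9, which cleaves versican, had 654 and 561 reads (log2 ratio 0.22, interval 0.06 to 0.39). Adamts15 had 1 and 0 reads, Adamts20 had 0 and 1, and Adamts8 had none.

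Adamts7 and Adamts12 form a pair with a shared domain structure, and both cleave cartilage oligomeric matrix protein (COMP). Adamts12 had 28 reads with mimic and 265 with scramble, or 9.47-fold fewer (log2 ratio -3.24, interval -3.86 to -2.68). It was at percentile 0.0246 of all genes compared. Adamts7 had 477 and 210 reads, 2.27-fold more in the mimic library (log2 ratio 1.18, interval 0.95 to 1.42). The pair thus lay on opposite sides, and its summed reads, 505 and 475, differed by less than counting error (log2 ratio 0.09, interval -0.10 to 0.27). Comp itself had 14 and 10 reads.

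Adamts6 and Adamts10 are likewise close relatives. Adamts6 had 65 and 279 reads, a 4.29-fold difference (log2 ratio -2.10, interval -2.51 to -1.71). Adamts10, which acts on fibrillin microfibrils, had 583 and 588 reads, with an interval that included 0 (log2 ratio -0.01, interval -0.18 to 0.15). Of the procollagen N-propeptidases, which trim fibrillar procollagens before assembly, Adamts2 had 1263 and 1561 reads (log2 ratio -0.31, interval -0.41 to -0.20) and Adamts14 had 297 and 338 (log2 ratio -0.19, interval -0.42 to 0.04). Adamts3 had 23 and 11 reads. Its log2 ratio of 1.06 is past the threshold of 1, but its interval of -0.03 to 2.25 included 0. Adamts16 had 411 and 536 reads (log2 ratio -0.38, interval -0.57 to -0.20). Adamts17 and Adamts18 had 4 and 3 reads in the scramble library and 0 in the mimic library, and Adamts13, the protease of von Willebrand factor, and Adamts19 had none.

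The Adamtsl proteins share the thrombospondin repeats but have no protease domain, and several bind fibrillin microfibrils. None of the 4 genes compared reached a log2 ratio of 1 in either direction, against 3.96% higher and 3.08% lower of all genes. With so few genes this count does not set the family apart. Adamtsl3 had 332 reads with mimic and 498 with scramble (log2 ratio -0.59, interval -0.79 to -0.38). Adamtsl1 had 94 and 131 reads (log2 ratio -0.48, interval -0.88 to -0.09). Adamtsl4 had 451 and 445 reads, and Adamtsl5 had 253 and 295, both with intervals that included 0. Adamtsl2 had 3 and 2 reads.

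Of the inhibitors, Timp1 was higher in the mimic library and the more abundant Timp2 and Timp3 differed little. Timp1, a secreted inhibitor that also binds the Mmp9 proenzyme, had 1246 and 564 reads, a 2.21-fold difference (log2 ratio 1.14, interval 0.998 to 1.29). Timp3, which stays bound to the matrix and also inhibits aggrecanases of the Adamts family, had 12475 and 10757 reads (log2 ratio 0.21, interval 0.18 to 0.25). Timp2, which takes part in the activation of Mmp2 by Mmp14, had 4626 and 4712 reads (log2 ratio -0.03, interval -0.09 to 0.03). The interval of Timp1 lay above those of Timp2 and Timp3. Timp4 had 0 reads in both libraries, which allows at most 0.161 CPM with mimic and 0.16 CPM with scramble if 3 reads are taken as the floor.

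Summed over each family, Adamts reads were lower in the mimic library and Mmp and Timp reads were higher. The Adamts family had 15240 reads with mimic and 24921 with scramble (log2 ratio -0.71, interval -0.74 to -0.68). This sum rested largely on Adamts1, which held 45.2% of the family's reads in the scramble library and 21.9% in the mimic library. Without Adamts1 the sums were 11898 and 13667 (log2 ratio -0.20, interval -0.24 to -0.17), a setting chosen after the values were seen. The Mmp family had 9326 and 7528 reads (log2 ratio 0.31, interval 0.26 to 0.35), and the Timp family had 18347 and 16033 (log2 ratio 0.19, interval 0.16 to 0.22). Reads on Timp genes therefore outnumbered those on Mmp genes by 1.97 times with mimic and by 2.13 times with scramble. The Adamtsl family had 1133 and 1371 reads (log2 ratio -0.28, interval -0.39 to -0.16). The median log2 ratios of the genes compared were -0.20 for Adamts, -0.35 for Adamtsl, 0.24 for Mmp and 0.21 for Timp, against 0.00 over all genes.

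**Figure D3:**
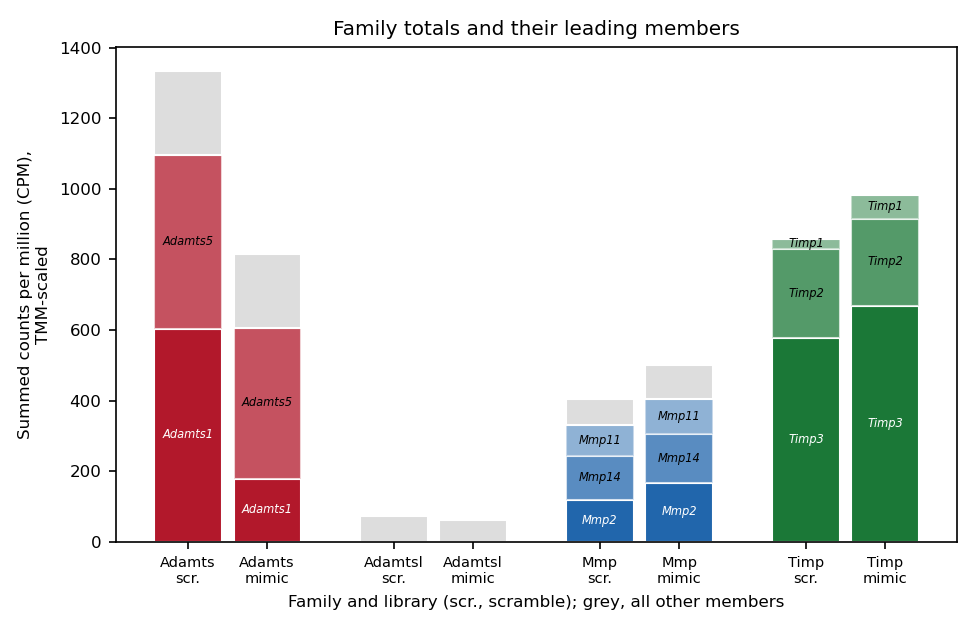
Summed CPM (TMM-scaled, linear axis from 0) of each family in the scramble and mimic libraries, with the leading members named inside the bars and all other members in grey. The Adamts bar is shorter in the mimic library mainly through Adamts1, whose reads were 3342 against 11254, and Timp3 forms the main part of both Timp bars.

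Per length of transcript, the order of the genes differed between the libraries at the top. Levels were expressed as RPKM, reads scaled to transcript length and library size, with the longest coding transcript of each gene in GENCODE M21. In the scramble library Adamts1 stood first of the 30 genes with 123 RPKM, next to Timp3 with 122, and these levels were followed by Timp2 with 68.1 and Adamts5 with 45.7. Adamts1 was in place 8 in the mimic library, with 36.6 RPKM. Timp3 led in the mimic library with 141 RPKM, and Timp1 was in place 2 with 75.6, against place 8 and 34.2 RPKM with scramble. Mmp3 stood at place 20 with scramble, at 2.17 RPKM, and at place 9 with mimic, at 12.7 RPKM. Even so, in the mimic library Mmp3 remained below Mmp2, Mmp11 and Mmp14, which had 54.4, 44.0 and 42.2 RPKM.

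Long transcripts had lower ratios across all genes, which bears on the families because their lengths differ. The median log2 ratio ran from 0.45 in the shortest decile of the genes compared to -0.26 in the longest. The median transcript was 5283.5 bases in the Adamts genes compared, 3238 in the Mmp genes and 3709 in the Timp genes, against 3165 over all genes. A quadratic trend on length and GC content was therefore subtracted. The median of Adamts was then -0.02, that of Adamtsl -0.24, that of Mmp 0.10 and that of Timp 0.39. The log2 ratio was then -2.87 in Adamts12, -1.801 in Adamts6 and -1.58 in Adamts1. It was 2.41 in Mmp3, 2.39 in Mmp9, 1.82 in Mmp13 and 1.30 in Adamts7, so all 7 were as far as 1 from 0 with the trend removed. Timp1, whose transcript of 883 bases is in the shortest decile, dropped to 0.71. Adamts5, with 10791 bases, changed sign from -0.21 to 0.25.

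**Figure D4:**
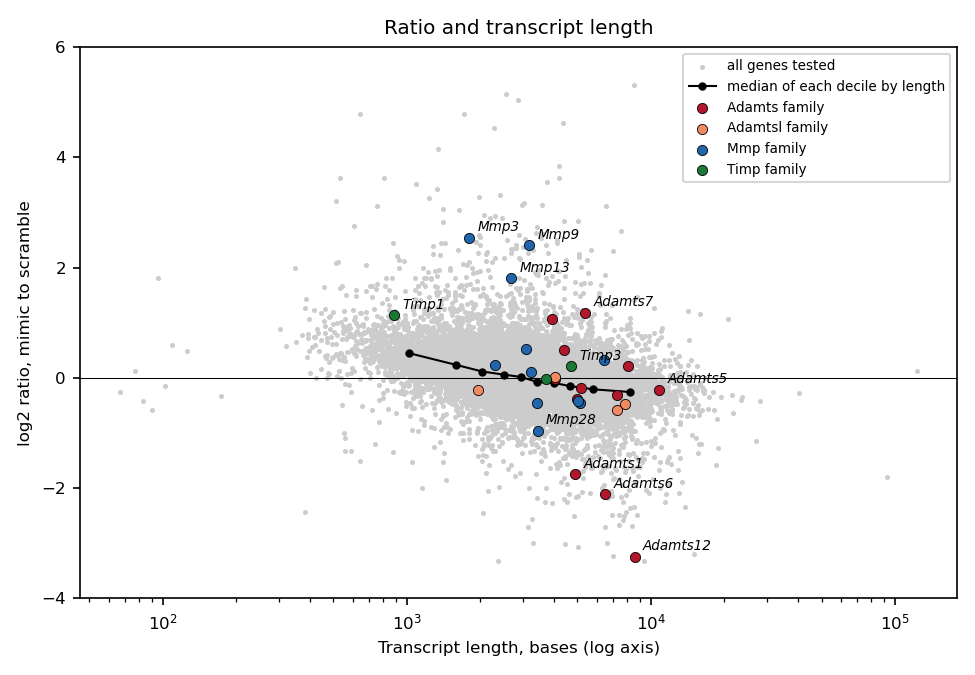
Log2 ratio of mimic to scramble against transcript length in bases (log axis) for all genes with a transcript in the annotation (grey), with the median of each decile by length as a black line and the 30 matrix proteolysis genes coloured by family. The line falls from 0.45 to -0.26, and Adamts1, Adamts6 and Adamts12 lie well below it while Mmp3, Mmp9 and Mmp13 lie well above it.

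The sequence of miR-471-5p is given to show where the family could pair with its seed, bases 2 to 8, in capitals. It lies on chromosome X, minus strand, from 66792634 to 66792655 in GRCm38.p6 (RefSeq).
miR-471-5p: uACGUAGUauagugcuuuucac
The mRNA letters that pair with the seed are ACTACGT, called 7mer-m8, and with an A after them ACTACGTA, called 8mer. In GENCODE M21 the longest 3′-UTR of Adamts10 held 1 match, of 8mer type, and no other gene of the 30 compared had a 7mer-m8 match there, beside 1.56% of all genes compared with a 3′-UTR. Coding regions held a match in 4 of the 30, Adamts4 (8mer), Adamts14, Adamtsl5 and Mmp28, beside 4.34% of all genes compared. These sites are shown with 10 bases on either side and the match in capitals, Adamts10 from the 3′-UTR and the others from the coding region.
Adamts10: gctaccctgaACTACGTAagaccctacc
Adamts4: ctgggctactACTACGTAttggagcccc
Adamts14: catacgcagaACTACGTgctgacgctc
Adamtsl5: cgcggcgggcACTACGTgctcaacggt
Mmp28: ggttcccgctACTACGTgctagctcaa
The 5 genes had no common direction. Adamts10, with the site in its longest 3′-UTR, had 583 and 588 reads and an interval that included 0. That 3′-UTR, of 1941 bases, is too long to share a transcript with the longest coding region, of 3315 bases. The longest coding transcript of the gene has 4043 bases. Reads were counted per gene, so the ratio of the transcripts with this site cannot be told from them. Adamts4 was higher in the mimic library, Mmp28 was lower, and the intervals of Adamts14 and Adamtsl5 included 0. The genes with the widest differences, Adamts12, Mmp3, Mmp9, Adamts6, Mmp13 and Adamts1, carried no 7mer-m8 match in either region. The coding region of Mmp9 held a 6mer, the letters CTACGT that pair with bases 2 to 7.

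Other genes of matrix proteolysis were read from a list of 52, of which 37 were compared. In the mimic library 3 were higher by a log2 ratio of at least 1 and 3 were lower, against 3.96% and 3.08% of all genes, and their median log2 ratio was 0.03. Bsg, or basigin, a membrane protein known for inducing Mmp production in neighbouring cells, had 6459 and 2510 reads (log2 ratio 1.36, interval 1.30 to 1.43). Dcn, the collagen-binding proteoglycan decorin, had 3478 and 839 reads (log2 ratio 2.05, interval 1.94 to 2.16). Spock2, a testican, had 14 and 6 reads with an interval that included 0. On the lower side, Thbs1, or thrombospondin-1, had 6133 and 12321 reads (log2 ratio -1.01, interval -1.05 to -0.96). The convertase Pcsk6 had 24 and 84 reads, and Tll1, a procollagen C-proteinase, had 18 and 48.

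The activation steps upstream of the Mmp genes were read by group. All 3 proprotein convertases compared had intervals below 0, and Pcsk6 was past a log2 ratio of -1 (-1.81, interval -2.53 to -1.14). Plasminogen activation had none of 5 genes past a log2 ratio of 1 or -1, against 3.96% and 3.08% of all genes. Plau and Plat, the urokinase and tissue activators, had 274 against 276 reads and 592 against 623, with intervals that included 0. Furin, which activates Adamts and membrane-type Mmp proenzymes, had 2523 and 3546 reads (log2 ratio -0.49, interval -0.57 to -0.42). Reck, a membrane-anchored Mmp inhibitor, had 711 and 982 reads (log2 ratio -0.47, interval -0.61 to -0.33). Of the 9 related metalloproteases compared, Adam9 had the most reads, with 3726 and 5830 (log2 ratio -0.65, interval -0.71 to -0.59). The cysteine cathepsins Ctsb and Ctsl were higher in the mimic library, with 3848 against 2625 reads and 4215 against 3038. Versican, Vcan, a substrate of Adamts1, had 12242 and 17021 reads (log2 ratio -0.48, interval -0.51 to -0.44), and biglycan, Bgn, led the substrates in reads with 57074 and 43538 (log2 ratio 0.39, interval 0.37 to 0.41).

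Collagen genes, the main structural substrates of the collagenases and gelatinases, were set beside the protease families. Of the 43 collagen genes 29 were compared, and 1 was higher and 0 were lower by a log2 ratio of 1, against 3.96% and 3.08% of all genes, and beside 6 and 3 of the 30 protease and inhibitor genes. Their median log2 ratio was 0.32, or 0.52 with the length and GC trend removed, and their summed reads were 237775 with mimic and 197778 with scramble (log2 ratio 0.27, interval 0.26 to 0.27). No test of the difference between these groups of genes was made, since genes are not replicates of a condition.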

How the data were processed

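Per the labels, RNA bound by Ago2 in TM4 cells was recovered with a Magna-RIP kit and made into TruSeq libraries. The submitters' processing notes name CASAVA 1.8.2, TopHat2 2.0.8b, HTSeq and the build mm9, and the annotation and strandedness are not given in the sources used here. What the authors deposited are read counts without normalization, a table for each library that lists 22609 gene symbols and 5 summary rows. The summary rows, 47.3% of entries with mimic and 44.1% with scramble, were left out of library sizes. Of these, alignments to more than one place made up 39.8% and 35.6% of all entries, so genes that share sequence with others may be undercounted, and which members this touches was not measured.

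TMM factors from edgeR 4.0.16, run in R 4.3.3, were 1.0026 (mimic) and 0.9974 (scramble). With 1 library per condition no dispersion can be estimated, so no test between conditions and no p-value is given. A gene was compared where its counts in both libraries summed to 20 or more. For a gene with 0 counts in 1 library, 3 counts were put in its place, which makes its ratio a bound. Of the 12186 genes, 99.1% matched a GENCODE M21 (GRCm38) symbol, directly or through a RefSeq synonym, and all 51 members did. That annotation gave lengths and seed matches only. The intervals and the fold rule were tested on simulated Poisson counts in which some genes were changed by known folds. Such counts hold counting error only, so the simulation does not cover variation between libraries. Every member with 20 counts was named with its values, and of the other genes those past a log2 ratio of 1 or -1 and those with most reads of their group. The members, lists and rules were chosen with earlier results of these data known. Alternatives were DESeq2 1.42.0 size factors, total counts, other count minimums and thresholds, and removal of the length and GC trend. Python 3.11.15, numpy 2.4.6, scipy 1.17.1, pandas 2.3.3 and matplotlib 3.10.9 were used.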

Additional observations from a re-analysis of the deposited data

How the results depend on the processing

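No paired analysis was possible because each condition has 1 library, and none could be left out. DESeq2 size factors and total counts left each of the 30 ratios within its counting interval, with 0 changes of sign. With the length and GC trend removed, 9 of the 30 ratios moved outside their interval. Among these, Timp1 fell from 1.14 to 0.71, and Adamts1 moved from -1.75 to -1.58. The sign changed in 3 of the 30, and none of these 3 was past 1 or -1. The median of Adamts then moved from -0.20 to -0.0217 and that of Timp from 0.21 to 0.39. Genes higher by a log2 ratio of 1 numbered 5 of 30 in place of 6, and lower genes 3 in both. At a log2 ratio of 0.5 there were 5 lower genes in place of 3. Without Adamts1, a setting chosen after the values were seen, the summed Adamts ratio was -0.20 in place of -0.71. Over all genes, 483 were higher and 375 lower by a log2 ratio of 1. Without a count minimum these were 1384 and 1404, with at least 200 counts 236 and 191, and at a log2 ratio of 0.5 they were 1816 and 1483. The causes of these changes were not tested beyond the numbers of genes that each setting admits. Depth limits Adamts3, Mmp15 and Mmp17, each with under 60 reads in all, and the 21 genes under 20 reads.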
